A study of Mus musculus with 8 samples.

Results

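The genes described are 45 homeobox genes of the NK-like, Dlx and related families, the members of a list of 48 symbols that have a row among the 23481 genes of the table. Cdx1, Cdx4 and Dbx1 have no row and were not analysed here. They were chosen by name and read in dopamine nuclei, with at least 5 tags of Th, Slc6a3, Slc18a2 and Ddc together per 10000 unique molecular identifiers (UMIs), and in other nuclei, with fewer. These 4 genes encode the enzymes and transporters by which a neuron makes, packs and takes up dopamine.

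Nuclei came from the midbrain of adult mice, were sorted, and were profiled by a 10x method that reads a tag from the 3' part of each transcript. One library was labelled wt and the other PRC2 mutant, each pooling 2 female mice and 1 male mouse aged 8 months, and the 8 samples are 4 flow cell lanes of each library. Both carry the strain name DatCreEed, a name built from Cre recombinase under the dopamine transporter (Dat) and from Eed, a core subunit of Polycomb repressive complex 2 (PRC2). The sources used here do not say which alleles the wt mice carried. Lanes are not kept apart in the table, so there is 1 library per genotype, genotypes could not be tested against each other, and genotype and library cannot be told apart. Intervals are 95% intervals and cover counting error only. A lower summed level can mean fewer nuclei with the RNA or less RNA per nucleus, which the sums do not tell apart. Tags were read from the 3' part of transcripts, and how far the length of a gene affects its count was not tested. Ratios are therefore taken between libraries or classes and not between genes. The fixed lines in CPM and any ranking of members do set different genes side by side.

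Homeobox genes encode transcription factors that bind DNA through a homeodomain. NK-like, Dlx and related genes give cells of the embryo their place and type, in the forebrain, eye, ventral and dorsal neural tube, branchial arches, gut and limbs. PRC2 methylates lysine 27 of histone H3 and is known for keeping such genes silent in cells that do not use them.

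The dopamine class held 1320 of 1772 wt nuclei (74.5%) and 2875 of 3968 mutant nuclei (72.5%), with 39383984 and 68742978 UMIs and medians of 24257.5 and 19023 UMIs per nucleus. Other nuclei numbered 452 and 1093, with 7156906 and 19458348 UMIs and medians of 12471.5 and 14650 UMIs. The split is a range of tags and not a cell type, and it uses genes that differ between the libraries: their summed level in the dopamine class was 2451 CPM (UMIs per 1000000 UMIs of the class) for wt and 1369 CPM for mutant nuclei. Between 3 and 7 tags per 10000 lay 59 wt and 260 mutant nuclei of the dopamine class and 95 and 243 other nuclei. Dopamine markers outside the split were higher in that class in both libraries, with Nr4a2 at 115 and 92.2 CPM in dopamine nuclei against 38.8 and 47.9 CPM in other nuclei. The libraries shared 4 cell barcodes, and without them the calls, sums and single ratios that were recomputed stayed within their counting intervals.

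In dopamine nuclei most of these genes were at or near 0 in the wt library and were present in the mutant library. A member was called gained when it was under 5 CPM in the wt and at least 1 CPM in the mutant library, with the lower bound of the ratio at 2 or more. Where the wt count was 0, the ratio against 3 wt counts took the place of that bound. By this rule 24 of the 45 members (53.3%) were gained, against 1.44% of all genes and 2.62% of the genes that were under 5 CPM in the wt library. Another 20 members were under 1 CPM in both libraries, a state of 36.5% of all genes and of 66.6% of those under 5 CPM in the wt library, and 1, Dbx2, lay between. None was on in wt dopamine nuclei at 5 CPM or more, where 45.2% of all genes are, and the highest wt level was 2.06 CPM, that of Dbx2. The wt library had 0 UMIs for 18 members, 1 to 10 UMIs for 16 and more for 11.

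Added together, the 45 members had 396 UMIs (10.1 CPM) in wt and 9626 UMIs (140.0 CPM) in mutant dopamine nuclei, a ratio of 13.9 (12.6 to 15.4). Without Vax2, the member with the most mutant tags, the ratio was 11.3 (10.2 to 12.5). With a pseudocount of 5 CPM added to each level, 8 members were at least 2-fold higher, against 0.777% of the 20074 genes with at least 10 UMIs. These were Vax2, Nkx2-2, Nkx2-1, Nkx2-3, Barx1, Dlx6, Mnx1 and Tlx1. The pseudocount holds back genes of a few CPM, and at 1 CPM 23 members were 2-fold higher. At 5 CPM 0 members were 2-fold lower (0.244% of genes tested were), and since all lay under 5 CPM in the wt library none could be. The median log2 ratio was 0.31 for the 45 members and 0.0034 for all genes of the table.

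**Figure D1:**
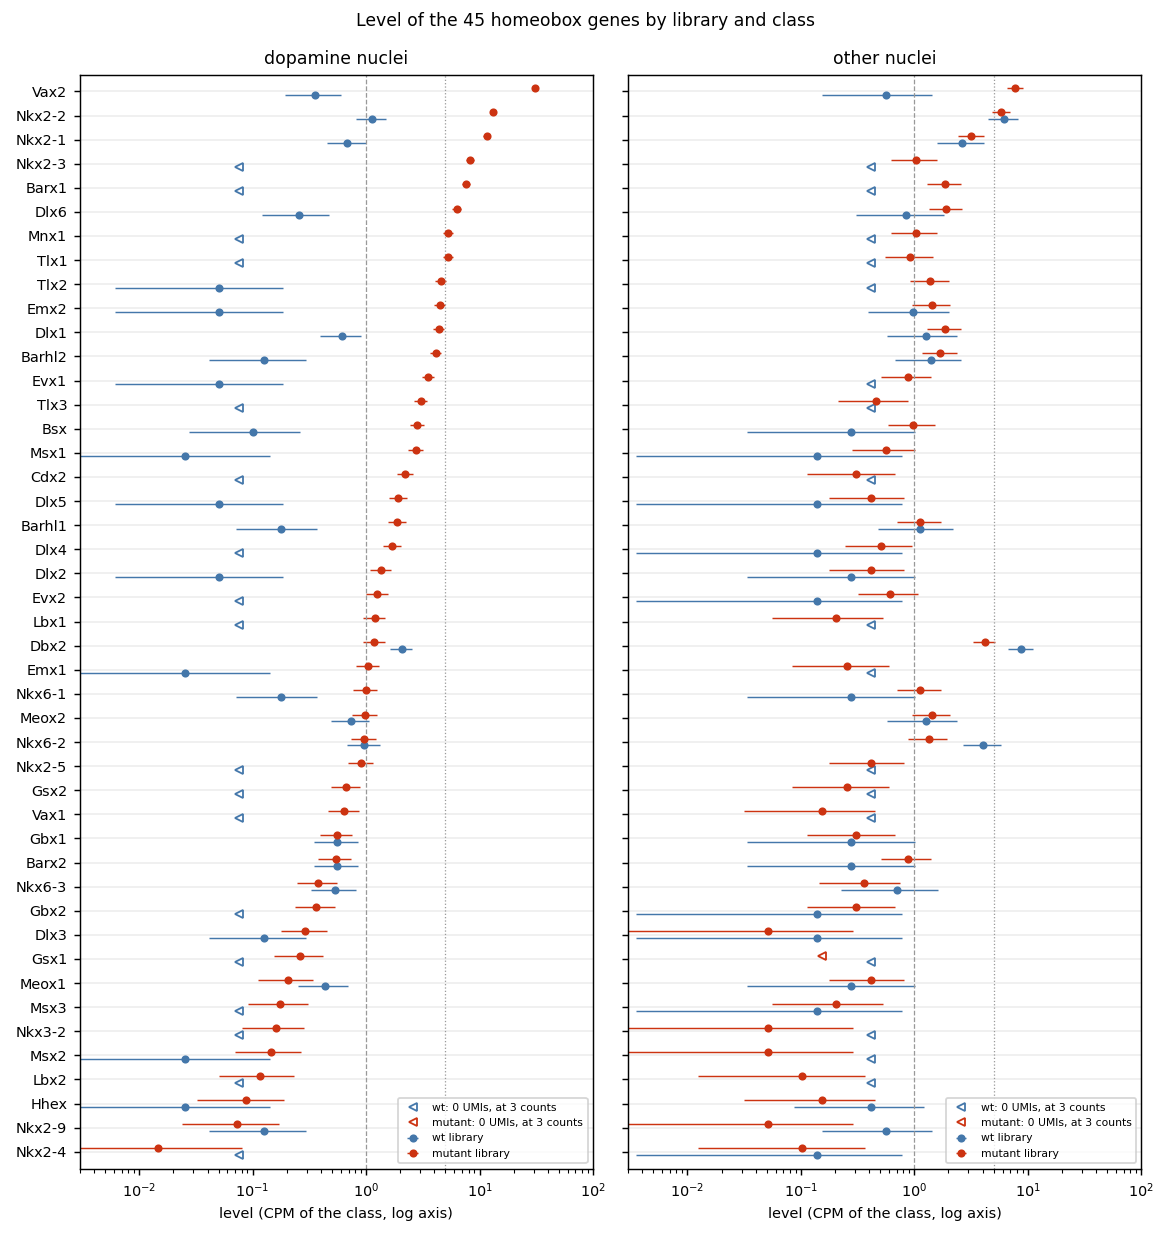
Level in CPM of the class (log axis) of each of the 45 homeobox genes in dopamine nuclei (left) and other nuclei (right), for the wt (blue) and mutant (red) library. Points are levels with 95% Poisson intervals, open triangles mark 0 UMIs and stand at the level of 3 counts, and the lines mark 1 and 5 CPM. On the left the red points of the upper genes reach 30.8 CPM while blue points stay at or under 2.06 CPM, and on the right the libraries lie closer together.

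Of the 10 NK genes in the table, 3 were gained, and each belongs to the Nkx2 group. Nkx2-1 (chromosome 12, 56531958 to 56536908, minus strand, in build mm10 like every position given) shapes the ventral forebrain, hypothalamus, thyroid and lung. It had 27 UMIs (0.686 CPM) in wt and 796 UMIs (Poisson interval 742 to 853; 11.6 CPM) in mutant dopamine nuclei, a ratio of 16.9 (11.5 to 25.8). The 27 wt tags came from 18 nuclei. The ratio was 71.0 without nuclei of over 50000 UMIs and 29.6 with equal weight per nucleus. In other nuclei Nkx2-1 had 2.65 and 3.19 CPM, a ratio of 1.20 whose interval (0.708 to 2.13) includes 1.

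Nkx2-2 (chromosome 2, 147177546 to 147194243, minus strand) acts in the ventral neural tube and in the oligodendrocyte lineage. It had 44 UMIs (1.12 CPM) in wt and 904 UMIs (13.2 CPM) in mutant dopamine nuclei. Its ratio was 11.8 (8.70 to 16.3). That ratio was 8.56 with a cut of 2 tags, 8.44 with equal weight per nucleus and 17.1 without nuclei with glial marker tags. In other nuclei Nkx2-2 was already on in the wt library, at 6.15 CPM, and the mutant level there was 5.86 CPM, a ratio of 0.953 (0.667 to 1.38). The 2 classes thus stood apart in the wt library but in the reverse order in the mutant library, where dopamine nuclei had 2.24 times the level of other nuclei (1.85 to 2.75).

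Nkx2-3 (chromosome 19, 43612325 to 43615892, plus strand) is known from the spleen and gut wall. It had 0 UMIs in both wt classes, 567 UMIs (8.25 CPM) in mutant dopamine nuclei and 20 UMIs (1.03 CPM) in mutant other nuclei. Against a floor of 3 counts over the wt class (0.0762 CPM), the level in dopamine nuclei was at least 108-fold higher. Such bounds were lower where each nucleus weighed the same, at 46.1 for Nkx2-3, 45.2 for Barx1, 30.4 for Mnx1 and 28.1 for Tlx1. The heart factor Nkx2-5 lay just under the 1 CPM line, with 0 wt UMIs and 62 mutant UMIs (0.902 CPM), at least 11.8-fold higher. Nkx6-1, a factor of ventral progenitors, motor neurons and islet cells, had 0.178 and 0.989 CPM, a ratio of 5.57 (2.56 to 14.4). The skeletal factor Nkx3-2 had 0 and 11 UMIs.

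Other NK genes did not follow. Nkx2-9, which marks ventral neural tube next to Nkx2-2, had 5 UMIs in each library in dopamine nuclei. Nkx2-4 had 0 and 1 UMI. Nkx6-2, used by myelinating oligodendrocytes, had 0.965 and 0.960 CPM, a ratio of 0.995 (0.658 to 1.52), and Nkx6-3, a gene of the stomach lining, 0.533 and 0.378 CPM. The NK family therefore holds gained members and members that were equally low in both libraries.

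Of the 6 Dlx genes 5 were gained. Dlx1, Dlx2, Dlx5 and Dlx6 drive GABA neuron fate in the forebrain and pattern the branchial arches. Dlx6 (chromosome 6, 6863334 to 6868568, plus strand) had 10 UMIs (0.254 CPM) in wt and 433 UMIs (6.30 CPM) in mutant dopamine nuclei, a ratio of 24.8 (13.4 to 52.1). Dlx1 (chromosome 2, 71528113 to 71533981, plus strand) had 24 UMIs (0.609 CPM) and 301 UMIs (4.38 CPM), a ratio of 7.19 (4.74 to 11.4) that was 4.64 when each nucleus weighed the same. Dlx5 had 2 and 132 UMIs, and Dlx2 had 2 and 93 UMIs. Dlx4 went from 0 wt UMIs to 117 mutant UMIs (1.70 CPM), at least 22.3-fold higher. The exception was Dlx3, a gene of placenta, hair and teeth, with 5 and 20 UMIs and a ratio of 2.29 whose interval (0.835 to 7.81) includes 1.

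In other nuclei the Dlx genes were low in both libraries. Dlx6 had 0.838 and 1.90 CPM and Dlx1 1.26 and 1.85 CPM, and both ratio intervals included 1. Within the mutant library Dlx6 was 3.31 times as high in dopamine as in other nuclei (2.37 to 4.77).

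Genes of the eye, cortex and head were gained as well. Vax2 (chromosome 6, 83711264 to 83738313, plus strand), which marks the ventral eye, had 14 UMIs (0.355 CPM) in wt and 2114 UMIs (2025 to 2206; 30.8 CPM) in mutant dopamine nuclei, a ratio of 86.5 (51.4 to 159). It met the gained rule in other nuclei too, with 4 UMIs (0.559 CPM) and 151 UMIs (7.76 CPM), a ratio of 13.9 (5.31 to 51.6). Of those 151 mutant UMIs, 108 came from nuclei just under the cut, with 2 to 5 dopamine tags. In nuclei with 0 dopamine tags Vax2 had 2 UMIs (1.18 CPM) in wt and 11 UMIs (1.87 CPM) in mutant nuclei. Its relative Vax1 had 0 and 44 UMIs (0.640 CPM) in dopamine nuclei, under the 1 CPM line but at least 8.40-fold higher. Emx2 (chromosome 19, 59458372 to 59465357, plus strand), needed for cerebral cortex and hippocampus, had 2 UMIs and 308 UMIs (4.48 CPM), a ratio of 88.2 (24.2 to 732). Emx1, its cortical relative, sat just inside the rule, at 1.03 CPM in the mutant library with 1 wt UMI.

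Barx1 (chromosome 13, 48662998 to 48666507, plus strand), a factor of stomach mesenchyme and molar teeth, had 0 wt UMIs in either class. It had 522 UMIs (7.59 CPM) in mutant dopamine nuclei, at least 99.7-fold higher, and 36 UMIs (1.85 CPM) in mutant other nuclei, at least 4.41-fold higher. Barx2, by contrast, had 22 and 37 UMIs, a ratio of 0.964 (0.554 to 1.71) that was 0.386 with equal weight per nucleus and 1.45 without nuclei with glial marker tags. Msx1, a gene of neural crest and tooth buds, had 1 and 188 UMIs, a ratio of 108 (19.1 to 4277). Its relatives Msx2 and Msx3 were under 1 CPM in both libraries. Msx2 had 1 and 10 UMIs, a ratio of 5.73 whose interval (0.815 to 249) includes 1, and Msx3 had 0 and 12 UMIs, at least 2.29-fold higher. Barhl2, a factor of retina and diencephalon, had 5 and 282 UMIs, a ratio of 32.3 (13.7 to 100.3), and Barhl1, of the inner ear and cerebellum, had 7 and 129 UMIs, a ratio of 10.6 (4.98 to 26.8). Bsx, a hypothalamic and pineal factor, had 4 and 195 UMIs, a ratio of 27.9 (10.7 to 104). In several small families one relative was thus gained while another stayed under 1 CPM.

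A further set marks spinal cord, hindbrain, trunk or gut. Mnx1 (chromosome 5, 29473034 to 29478470, minus strand), the motor neuron and pancreas factor, had 0 wt UMIs and 365 mutant UMIs (5.31 CPM) in dopamine nuclei, at least 69.7-fold higher. All 3 Tlx genes were gained. Tlx1 (chromosome 19, 45150680 to 45156943, plus strand), needed for the spleen, had 0 and 362 UMIs (5.27 CPM), at least 69.1-fold higher. Tlx2, of enteric neurons, had 2 and 312 UMIs, a ratio of 89.4 (24.5 to 741). Tlx3, a selector of excitatory dorsal horn neurons, had 0 and 208 UMIs, at least 39.7-fold higher. Lbx1, which acts in dorsal spinal neurons and migrating muscle precursors, had 0 and 82 UMIs, at least 15.7-fold higher, and Lbx2 had 0 and 8 UMIs.

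Cdx2, the intestinal factor that also activates Hox genes, had 0 and 151 UMIs (2.20 CPM), at least 28.8-fold higher. Evx1, a marker of ventral spinal interneurons, had 2 and 243 UMIs, a ratio of 69.6 (19.1 to 578), and Evx2 had 0 and 86 UMIs, at least 16.4-fold higher. These 2 genes flank Hox clusters. Evx1 lies 52.6 kb from Hoxa13, which had 0 wt and 419 mutant UMIs, and Evx2 lies 8.75 kb from Hoxd13, which had 0 and 157 UMIs. Both Hox genes and Evx2 were thus at 0 UMIs in wt dopamine nuclei, and Evx1 was at 2.

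The 20 members under 1 CPM in both libraries were of 2 kinds. For 8 of them (Nkx2-5, Nkx3-2, Nkx6-1, Msx3, Gbx2, Vax1, Gsx1 and Gsx2) the mutant level was low but its bound was at least 2 times the wt level. Gsx2, of the ventral telencephalon, had 0 and 46 UMIs and Gbx2, of the anterior hindbrain, 0 and 25 UMIs. The other 12 were Nkx2-4, Nkx2-9, Nkx6-2, Nkx6-3, Dlx3, Msx2, Gbx1, Barx2, Lbx2, Meox1, Meox2 and Hhex. Meox2, a gene of somites and vessels, had 29 and 67 UMIs, a ratio of 1.32 (0.844 to 2.12) that was 0.854 with a cut of 10 tags, and Gbx1, of the dorsal spinal cord, had 22 and 38 UMIs, a ratio of 0.99 (0.571 to 1.76). Members near the line were Emx1 (1.03 CPM) just inside it, and Nkx6-1 (0.989 CPM), Meox2 (0.975 CPM) and Nkx6-2 (0.960 CPM) just outside it. Only Nkx6-1 of these 3 had a bound past 2-fold.

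Dbx2 (chromosome 15, 95623563 to 95655960, minus strand), a factor of interneuron progenitors in the neural tube, was the only member with a ratio interval under 1 in dopamine nuclei. It had 81 UMIs in each library, 2.06 and 1.18 CPM, a ratio of 0.573 (0.416 to 0.789) that was 0.826 with equal weight per nucleus. Its level was lower in other nuclei too, at 8.66 and 4.16 CPM, a ratio of 0.481 (0.341 to 0.680). Nkx6-2 was lower there as well, at 4.05 and 1.34 CPM, a ratio of 0.330 (0.187 to 0.580). Glial markers moved with both genes: in other nuclei the 5 astrocyte markers summed to 124 and 46.4 CPM and the 6 oligodendrocyte markers to 550.5 and 272 CPM, wt first, and 0 markers of either list were at 0 UMIs. In dopamine nuclei these sums were 26.6 and 17.5 CPM and 170 and 148 CPM. Their part in the lower levels was not tested.

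When other nuclei were sorted by fixed marker lists, with at least 10 tags of a list per 10000 UMIs, most wt tags of Dbx2 and Nkx6-2 lay in nuclei with glial markers. Of the 62 wt tags of Dbx2 in other nuclei, 37 were in 49 nuclei with astrocyte markers, at 190 CPM, and the 44 mutant nuclei of that kind had 127 CPM. Nkx6-2 had 14 of its 29 wt tags in 74 nuclei with oligodendrocyte markers, at 17.6 CPM, and 14.5 CPM in the 86 mutant ones. Nkx2-2 had 8 tags in only 14 wt nuclei with markers of oligodendrocyte precursors, at 92.9 CPM, and 13 tags in 28 such mutant nuclei, at 77.2 CPM. Wt tags of the members that were on in the wt library thus lay mostly in nuclei with glial markers, on small counts. In mutant other nuclei 69 of the 114 Nkx2-2 tags lay in nuclei that fell in no marker group. Vax2 had 0 wt tags in all these glial groups, and 6 tags in the mutant nuclei with oligodendrocyte markers.

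Fewer members were gained in other nuclei. By the same rule 5 of 45 members were gained there (Nkx2-3, Barx1, Vax2, Tlx2 and Mnx1), against 0.443% of all genes and 0.84% of those under 5 CPM in the wt library. Another 29 were under 1 CPM in both libraries (34.1% of all genes, 64.6% of those under 5 CPM in wt), 2, Nkx2-2 and Dbx2, were on in wt (47.3% of genes) and 9 lay between (18.2%). Members gained in dopamine nuclei but not here had 0 to 44 wt UMIs and 4 to 114 mutant UMIs in this class, such as Tlx3 with 0 and 9 and Barhl2 with 10 and 33. Nkx2-9, with 4 and 1 UMIs, also had a ratio interval under 1. With the pseudocount, 1 member, Vax2, was at least 2-fold higher (0.22% of genes tested), and 0 members were with a cut of 2 tags. Depth was lower in this class, where 1 UMI was 0.14 CPM in the wt library against 0.0254 CPM in dopamine nuclei, so a smaller gain could be missed. Summed, the members had 33.4 and 48.6 CPM, a ratio of 1.45 (1.26 to 1.68). That direction depended on the cut. With other nuclei taken as those under 2 tags per 10000 the ratio was 0.936, with those under 1 tag 0.844, and with equal weight per nucleus 0.964. Among other nuclei with GABA neuron markers the members summed to 11.7 CPM (5.62 to 21.5) in 49 wt and 45.8 CPM (38.2 to 54.4) in 156 mutant nuclei. Those markers include Gad1 and Slc32a1, which themselves met the gained rule in dopamine nuclei. Whether mutant nuclei just under the cut entered the GABA group was not tested. In nuclei that fell in no marker group the members summed to 20.7 and 44.7 CPM, and among those with astrocyte markers to 292 and 227 CPM.

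A finer split by dopamine tags shows where the members' tags lay. In mutant nuclei with 0 dopamine tags the 45 members summed to 37.8 CPM (33.0 to 43.1, 449 nuclei), and with more than 0 but under 2 tags to 38.8 CPM. From 2 to 5 tags the sum was 67.7 CPM, from 5 to 10 tags 127 CPM, from 10 to 20 tags 150 CPM (146 to 154, 1589 nuclei) and from 20 to 40 tags 123 CPM (115 to 130). The wt library ran the other way, from 53.9 CPM (43.4 to 66.2, 185 nuclei) at 0 tags to 7.36 CPM (6.36 to 8.47, 802 nuclei) at 20 to 40 tags. Vax2 in mutant nuclei went from 1.87 CPM at 0 tags and 15.9 CPM at 2 to 5 tags to 32.7 CPM at 10 to 20 tags. The nuclei just under the cut were thus intermediate in the mutant library.

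**Figure D2:**
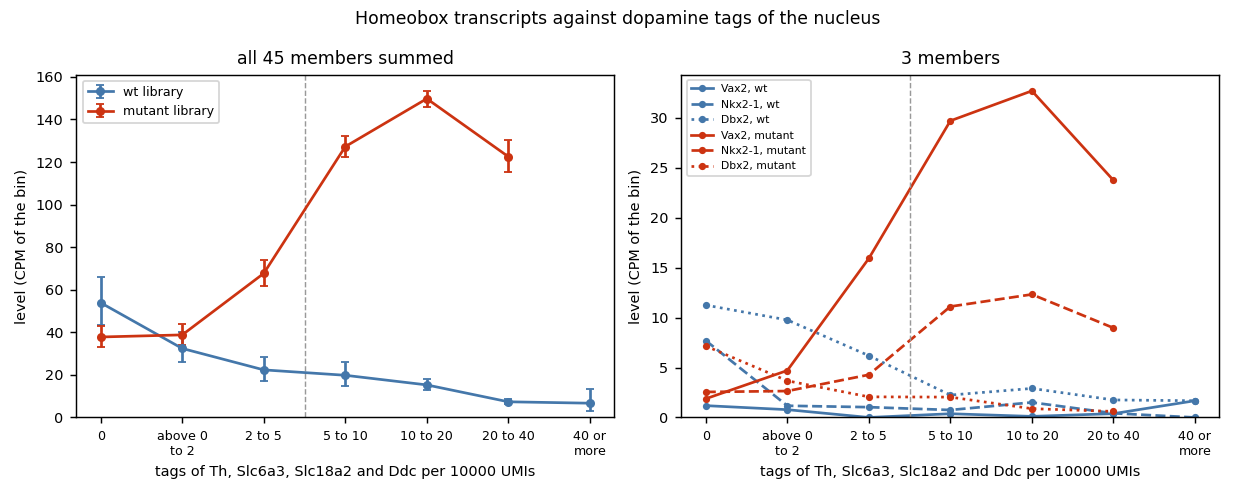
Level in CPM of all 45 members summed (left, with 95% Poisson intervals) and of Vax2, Nkx2-1 and Dbx2 (right) in nuclei binned by tags of Th, Slc6a3, Slc18a2 and Ddc per 10000 UMIs (x axis), for the wt (blue) and mutant (red) library. The dashed line marks the cut of 5 and bins of under 20 nuclei are not drawn. The libraries' intervals overlap at above 0 to 2 tags, at 32.4 and 38.8 CPM, and the libraries part at the right, at 7.36 and 123 CPM with 20 to 40 tags.

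All 24 gained members were higher in dopamine than in other nuclei of the mutant library, with intervals above 1, and for 15 of them the interval was above 2. Nkx2-3 had 8.02 times the level (5.15 to 13.2), Tlx1 5.69 times (3.55 to 9.71), Mnx1 5.17 times (3.30 to 8.56) and Barhl1 1.66 times (1.05 to 2.74). The members called gained were selected by their level in mutant dopamine nuclei, so a lead of that class is in part built in. The share of all genes with such a lead is not given, so the counts of 24 and 15 are a description.

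The gain was spread thinly over many nuclei. Each nucleus was thinned to 5000 UMIs, which left out 60 wt and 90 mutant dopamine nuclei that were shallower. A tag of any member was then found in 45 of 1260 wt nuclei (3.57%, 2.62 to 4.75%) and in 1273 of 2785 mutant nuclei (45.7%, 43.8 to 47.6%). At their own depth the shares were 19.2% and 76.9%. Among other nuclei the thinned shares were 16.3% (12.4 to 20.7%) of 326 wt and 20.5% (17.9 to 23.3%) of 893 mutant nuclei, with 126 and 200 too shallow to be used. Of the mutant dopamine nuclei 859 had tags of 1 member, 327 of 2 and 87 of 3 or more, whereas no wt dopamine nucleus had more than 1.

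Vax2 was found in 2 wt dopamine nuclei (0.159%) and 365 mutant ones (13.1%, 11.9 to 14.4%) after thinning, Nkx2-2 in 4 and 185, and Barx1 in 0, which allows up to 0.238%, and 109. The level of stray tags was gauged in mutant nuclei with oligodendrocyte markers, of a median of 5234 UMIs against 19023 in mutant dopamine nuclei before thinning. Among 44 such nuclei Vax2 was found in 1, Nkx2-2 in 3 and Barx1 in 1, while Ddc was found in 13. Mnx1 was found in 2 and Bsx in 1 of the 44, against 2.37% and 1.40% of mutant dopamine nuclei. For Nkx2-2, Mnx1 and Bsx the share among the 44 was thus no lower than in mutant dopamine nuclei. Nkx2-2 cannot be gauged this way, since wt nuclei with oligodendrocyte markers already had it at 10.0 CPM. Bsx also had 2 tags in those wt nuclei. For Mnx1 and Bsx, with 2 and 1 tagged nuclei of 44, the thinned shares cannot be set above stray tags. For Vax2 (13.1%) and Barx1 (3.91%) the share in mutant dopamine nuclei was higher, with 1 tagged nucleus of 44 behind each comparison. On 1 nucleus Barx1 cannot be set above stray tags either. Among members found in 0 of the 44 were Nkx2-1 (4.52% of mutant dopamine nuclei), Nkx2-3 (3.63%), Dlx6 (3.05%) and Tlx1 (1.94%). For shares this small 44 nuclei are too few to gauge stray tags.

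Deeper mutant nuclei more often showed a member. Of mutant dopamine nuclei under 10000 UMIs 43.0% had a tag of at least 1 member, from 10000 to 20000 UMIs 71.1%, from 20000 to 40000 UMIs 92.7% and at 40000 UMIs or more 97.7% (379 of 388, 95.6 to 98.9%), with a median of 6 members. The wt shares over the same bands were 3.07%, 12.2%, 17.9% and 37.3%, with a median of 0 members in each. Of the deepest mutant nuclei 9 had none.

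**Figure D3:**
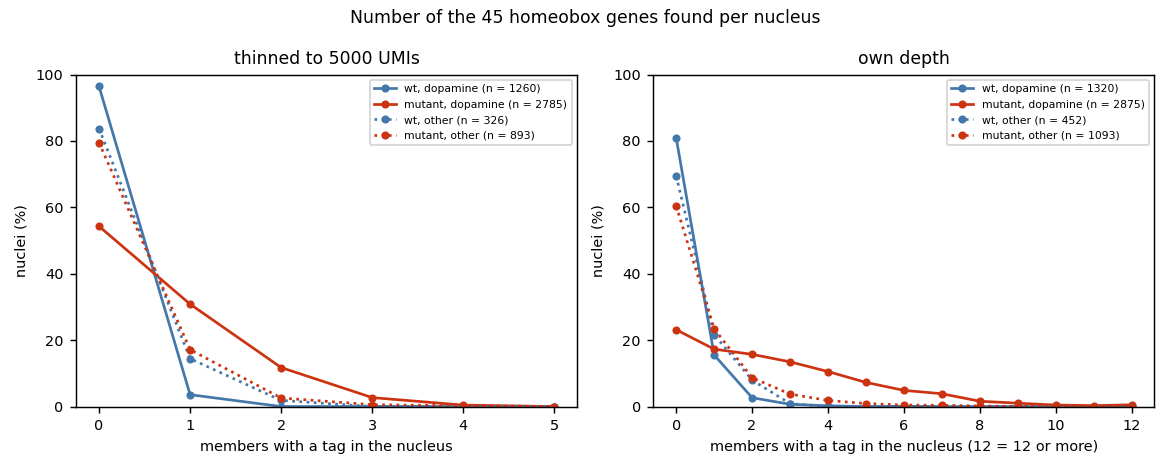
Share of nuclei (y axis, percent) by the number of the 45 homeobox genes with a tag in the nucleus (x axis), after thinning to 5000 UMIs (left) and at own depth (right), for wt (blue) and mutant (red) dopamine nuclei (solid) and other nuclei (dotted). After thinning 54.3% of mutant and 96.4% of wt dopamine nuclei had no member, and the red solid line alone extends clearly past 1 member.

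Linked pairs did not all behave alike. Within 100 kb of each other the members form 7 pairs. In 3 of these, Dlx1 with Dlx2 (9.43 kb apart), Dlx5 with Dlx6 (9.24 kb) and Tlx1 with Lbx1 (75.7 kb), both genes were gained. In the other 4, 1 gene was gained and its neighbour stayed under 1 CPM in both libraries: Nkx2-1 with Nkx2-9 (74.5 kb), Nkx2-2 with Nkx2-4 (92.1 kb), Tlx2 with Lbx2 (16.1 kb) and Dlx4 with Dlx3 (15.2 kb). From wt to mutant dopamine nuclei Nkx2-1 went from 27 to 796 UMIs while Nkx2-9 had 5 in both. Nkx2-2 went from 44 to 904 UMIs while Nkx2-4 went from 0 to 1. Between 100 and 500 kb Cdx2 and Emx2 were gained, while their neighbours Gsx1 and Vax1 stayed under the 1 CPM line. Both neighbours were still higher in the mutant library, with 0 and 18 UMIs for Gsx1 and 0 and 44 UMIs for Vax1. Nkx6-2 and Msx3 both stayed under the line.

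**Figure D4:**
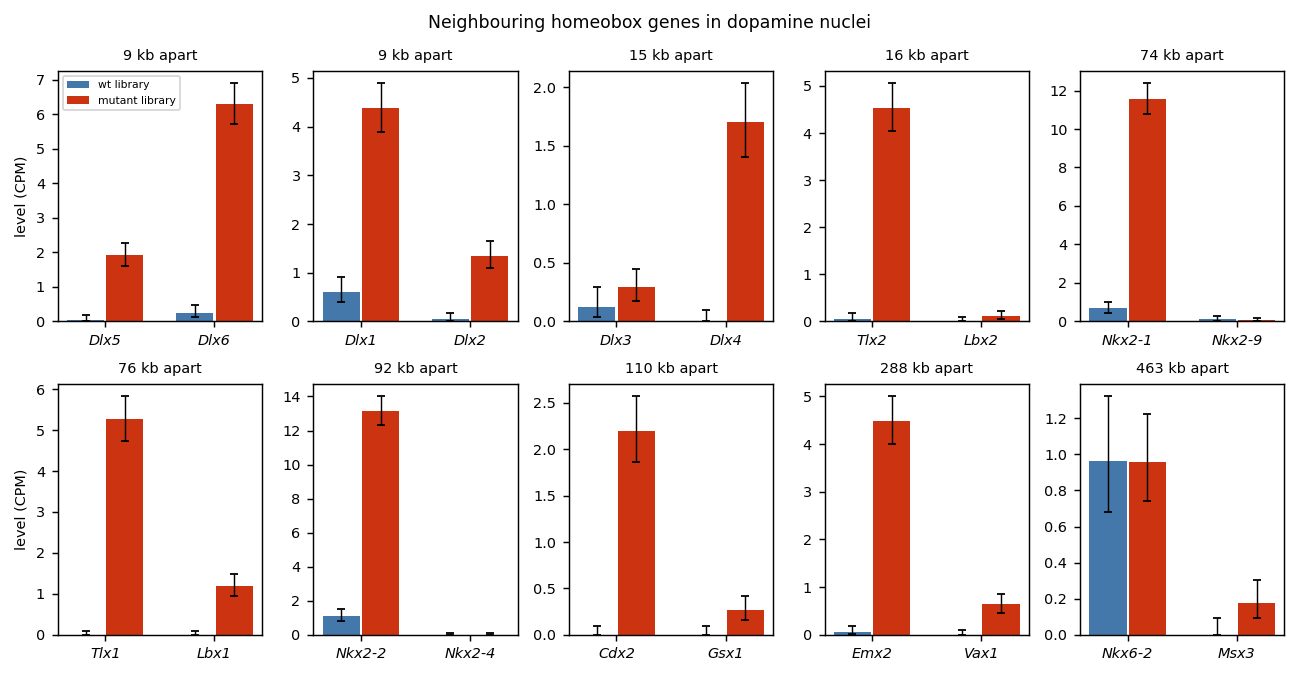
Level in CPM (y axis, own scale per panel) in wt (blue) and mutant (red) dopamine nuclei of members within 500 kb of each other, with 95% Poisson intervals and the distance between the genes above each panel. For Dlx5 with Dlx6 and Dlx1 with Dlx2 the red bar stands above the blue bar at both genes, whereas next to Nkx2-1 (0.686 and 11.6 CPM) Nkx2-9 has 0.127 CPM in wt and 0.0727 CPM in mutant nuclei.

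To show what lies in front of genes that parted and genes that did not, the 250 bases upstream of the RefSeq start (GRCm38.p6) are printed for 6 members whose window holds no annotated exon: the neighbours Nkx2-1 (gained) and Nkx2-9 (not), the gained Nkx2-3 and Mnx1, and Nkx6-2 and Meox2, which were not gained. Each runs 5′ to 3′ toward the start on the strand of the gene, with CpG sites (CG, the same on both strands) in capitals.
Nkx2-1 (chr12:56536909-56537158, minus strand): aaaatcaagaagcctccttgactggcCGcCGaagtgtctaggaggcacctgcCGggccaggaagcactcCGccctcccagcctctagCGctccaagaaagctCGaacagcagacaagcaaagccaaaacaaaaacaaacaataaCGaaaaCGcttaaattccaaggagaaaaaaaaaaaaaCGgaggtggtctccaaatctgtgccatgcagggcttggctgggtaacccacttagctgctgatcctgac
Nkx2-9 (chr12:56613285-56613534, minus strand): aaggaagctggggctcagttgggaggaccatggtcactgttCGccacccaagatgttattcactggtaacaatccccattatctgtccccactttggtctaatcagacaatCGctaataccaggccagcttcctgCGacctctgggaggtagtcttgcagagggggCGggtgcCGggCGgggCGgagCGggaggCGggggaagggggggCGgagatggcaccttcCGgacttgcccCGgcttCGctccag
Nkx2-3 (chr19:43612075-43612324, plus strand): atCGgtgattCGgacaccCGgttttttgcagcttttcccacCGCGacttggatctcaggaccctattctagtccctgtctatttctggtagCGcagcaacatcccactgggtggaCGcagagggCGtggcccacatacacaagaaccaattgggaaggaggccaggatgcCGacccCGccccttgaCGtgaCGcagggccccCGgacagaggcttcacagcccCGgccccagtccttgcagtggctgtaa
Mnx1 (chr5:29478471-29478720, minus strand): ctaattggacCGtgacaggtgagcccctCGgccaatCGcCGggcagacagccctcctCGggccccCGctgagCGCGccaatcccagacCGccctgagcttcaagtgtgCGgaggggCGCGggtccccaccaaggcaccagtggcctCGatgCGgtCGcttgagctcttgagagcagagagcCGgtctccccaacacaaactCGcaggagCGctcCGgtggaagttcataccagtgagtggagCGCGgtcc
Nkx6-2 (chr7:139582798-139583047, minus strand): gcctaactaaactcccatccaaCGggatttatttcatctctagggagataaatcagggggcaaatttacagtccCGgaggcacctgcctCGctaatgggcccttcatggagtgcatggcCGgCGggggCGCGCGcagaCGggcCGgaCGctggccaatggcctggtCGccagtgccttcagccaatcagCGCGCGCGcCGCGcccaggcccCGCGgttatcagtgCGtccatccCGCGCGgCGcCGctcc
Meox2 (chr12:37108290-37108539, plus strand): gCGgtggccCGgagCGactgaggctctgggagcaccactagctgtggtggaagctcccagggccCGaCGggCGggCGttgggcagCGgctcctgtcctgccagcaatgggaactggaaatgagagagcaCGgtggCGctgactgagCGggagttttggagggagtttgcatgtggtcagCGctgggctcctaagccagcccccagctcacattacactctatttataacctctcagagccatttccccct

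CpG sites numbered 9 for Nkx2-1, 13 for Nkx2-9, 14 for Nkx2-3, 21 for Mnx1, 26 for Nkx6-2 and 12 for Meox2. Over all 32851 windows of this length in the RefSeq promoter table the median was 6, and 92.1% held at least 1. Every one of the 6 was thus above the median of all promoters. Among the 6 the fewest were in front of the gained Nkx2-1 and the most in front of Nkx6-2, which was not gained. That order does not hold beyond the 6 windows picked. Of other members without an annotated exon in the window, the gained Barhl2 had 36 sites and 1 window of the gained Barhl1 had 7. Only 33 of the 45 members (73.3%) have an entry in that table, under the 80% needed, so no share of CpG-rich promoters over the members is given. Those without one are Nkx6-3, Dlx3, Dlx4, Dlx5, Dlx6, Gbx1, Barx2, Vax2, Tlx2, Lbx1, Lbx2 and Meox1.

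A list of 7 noncoding genes next to members was read beside them. The 6 in the table, each on the strand opposite to its member, met the gained rule in dopamine nuclei, against 1.44% of all genes. All 6 overlap a gained member, and the list was chosen with earlier results of these data known. Vax2os had 6 UMIs (0.152 CPM) in wt and 5263 UMIs (76.6 CPM) in mutant dopamine nuclei, a ratio of 503 (231 to 1370). Emx2os had 34 UMIs (0.863 CPM) and 3434 UMIs (49.95 CPM), a ratio of 57.9 (41.3 to 83.7), and Dlx6os1, also known as Evf2, had 70 UMIs (1.78 CPM) and 3127 UMIs (45.5 CPM), a ratio of 25.6 (20.2 to 32.9). Nkx2-2os had 3.91 and 21.2 CPM, Evx1os 0.0762 and 6.23 CPM and Dlx1as 0.813 and 3.90 CPM. The sources used here do not say how the counting used strand, so tags of a gene and its antisense partner may not be told apart. Genes on the opposite strand also overlap Nkx2-1, Nkx6-2, Dlx4, Gbx2, Barx2, Tlx1 and Meox1. Further ones on the opposite strand are 6430503K07Rik at Nkx2-2 and Dlx6os2 at Dlx6. On the same strand Gm25054 overlaps Vax2 and Gm48617 overlaps Meox2. The levels of these were not examined.

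Partners on opposite strands differed in how far their tags fell in the same nuclei. At own depth a Vax2os tag was found in 80.6% of the mutant dopamine nuclei with a Vax2 tag and in 35.8% of those without. After thinning to 5000 UMIs, which evens out depth, the shares were 38.1% and 23.5%. For Dlx6 and Dlx6os1 the thinned shares were 34.1% and 18.5%, on 29 nuclei with both, and for Emx2 and Emx2os 20.4% and 19.0%, on 11. The other 3 pairs had 16, 4 and 2 nuclei with both after thinning: the shares were 8.65% and 8.19% for Nkx2-2 and Nkx2-2os, 7.27% and 2.82% for Evx1 and Evx1os, and 3.57% and 1.98% for Dlx1 and Dlx1as. Coding neighbours were too sparse for this after thinning, with at most 1 nucleus with both. At own depth Dlx6 was found in 22.8% of mutant dopamine nuclei with Dlx5 (28 nuclei with both) and in 11.95% of those without. Lbx1 was found in 5.94% of nuclei with Tlx1 and 2.26% of those without, and Dlx2 in 4.18% and 2.95% of those with and without Dlx1. The part of depth in these shares was not tested.

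Other genes of the wider ANTP homeobox class gave a mixed picture. Of 13 listed 11 are in the table. In dopamine nuclei 3 were gained (Hlx, Hmx1 and Pdx1), against 1.44% of all genes. Another 2 were on in the wt library (En1 and En2), against 45.2% of all genes. The other 6 were under 1 CPM in both, against 36.5% of all genes. Hmx1, of the eye, ear and sensory ganglia, had 0 wt UMIs and 844 mutant UMIs (12.3 CPM), at least 161-fold higher. The pancreas factor Pdx1 had 0 and 282 UMIs, at least 53.9-fold higher. En1 and En2 are used by midbrain neurons, and both were lower in the mutant library. En1 had 75.1 and 29.3 CPM, a ratio of 0.390 (0.368 to 0.413), and was the 1 gene of the list at least 2-fold lower with the pseudocount. En2 had 27.9 and 21.7 CPM, a ratio of 0.780 (0.721 to 0.844).

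A list of genes known as targets or partners of these factors held 13 genes, all in the table. In dopamine nuclei 8 of them were gained, against 1.44% of all genes. Lhx6, a target of Nkx2-1 in forebrain interneurons, had 3 UMIs and 736 UMIs (10.7 CPM), a ratio of 141 (47.9 to 683). Lhx8 had 2 and 426 UMIs and Isl1 had 0.584 and 11.9 CPM. Gad1 makes GABA and had 4.29 and 99.4 CPM in this class. Olig2 and Sp8 stayed under 1 CPM in both libraries. The list was drawn up with results of these data known and gives no support of its own.

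After thinning, an Lhx6 tag was found in 14 of 126 mutant dopamine nuclei with an Nkx2-1 tag (11.1%, exact interval 6.21 to 17.9%) and in 4.81% (4.03 to 5.70%) of those without. An Lhx8 tag was found in 3 of the 126 nuclei with an Nkx2-1 tag (2.38%, 0.494 to 6.80%) and in 3.12% (2.49 to 3.85%) of those without. These intervals overlap, and no direction is given for Lhx8. A Gad1 tag was found in 38.0% (30.7 to 45.7%) of 171 nuclei with a tag of Dlx1, Dlx2, Dlx5 or Dlx6 and in 33.0% (31.2 to 34.9%) of the rest. For Vax2 the shares of nuclei with Gad1 were 40.5% (35.5 to 45.8%) with and 32.2% (30.4 to 34.1%) without a Vax2 tag. With Nkx2-2 they were 38.4% and 33.0%, and with Barx1 38.5% and 33.1%, so nuclei with tags of these other factors showed Gad1 about as often as those with Dlx tags. These shares describe nuclei of 1 library and are no test.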

How the data were processed

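The deposited values are UMI counts, whole numbers that the authors left unnormalised, in 1 table of genes by nuclei. Cell Ranger 3.1.0 and build mm10 appear in the submitters' processing notes with no role, and any filter before deposit is not stated. Column names give each nucleus its genotype by their first letters. All 5740 nuclei were used, and doublets were not called. Python 3.11.15 with numpy 2.4.6, scipy 1.17.1, pandas 2.3.3 and matplotlib 3.10.9 was used. UMIs were summed per class and library and divided by the class total. Ratios have exact binomial, levels exact Poisson and shares exact binomial intervals. Where the wt count was 0 the ratio was taken against 3 counts over the class. Positions came from GENCODE M21 by symbol. A list of 13 further ANTP homeobox genes, 7 noncoding neighbours, 13 targets or partners and marker lists of neurons and glia were read beside the members. Alternatives changed the cut, the nuclei kept, the weight of a nucleus, the total, the pseudocount, the minimum of UMIs and the lines of the states. The rule for named genes gave values for members with at least 50 UMIs in dopamine nuclei, those in linked pairs and those on in wt, and Dlx3, Nkx2-4, Nkx2-9 and Lbx2 are named as neighbours. Genes named beyond that rule were chosen after their values were seen. The members, lists and cuts were chosen with earlier results of these data known. The calculation was run on simulated Poisson sums per gene and library for the dopamine class, with 200 of 23481 genes changed. Intervals covered the true ratio for 95.8% of genes with at least 10 UMIs, and 0 of 23281 unchanged genes were called gained. The intervals rest on the same model, so this checks the calculation only. Differences between mice or libraries, clumped tags and stray tags were not simulated.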

Additional observations from a re-analysis of the deposited data

How the results depend on the processing

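No paired analysis was possible because there is 1 library per genotype, whose lanes cannot be separated here, which also means that no replicate could be left out. The count of 24 gained members was 17 to 28 under the alternatives: all 24 were kept except with the lines at 2 and 10 CPM, where 17 of them were. The 8 members 2-fold higher in dopamine nuclei were 7 to 11 under the alternatives other than a pseudocount of 1 CPM, where they were 23. In other nuclei the count of 1 was 0 with a cut of 2 tags or with a gap between the classes (10 tags or more against under 1), and 5 with a pseudocount of 1 CPM. The summed ratio of 13.9 in dopamine nuclei was 12.3 with a cut of 2, 15.5 with a cut of 10 or with the gap, and 17.1 without nuclei with glial marker tags. That of 1.45 in other nuclei was 0.936 with a cut of 2, 0.844 with the gap and 0.964 with equal weight per nucleus, so its direction turned, and 2.97 with a cut of 10 and 2.40 without nuclei with glial marker tags. The cause was not tested. Of 279 single ratios under the alternatives 28 moved past their interval, or by over 1.5 times where they are bounds. None crossed 1 among members whose interval excludes 1 or whose wt count is 0. Those of Nkx6-2, Gbx1, Barx2 and Meox2, whose intervals include 1, did cross it, so no direction is given for them in dopamine nuclei. The alternative without shared barcodes was chosen after seeing the data. Depth limits calls most in wt other nuclei, where 3 counts are 0.419 CPM.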
